A study of Mus musculus with 4 samples.

Results

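The interleukin-1 (IL-1) family was followed here through 10 of its genes, 6 clustered receptors, their shared accessory chain, 2 cytokines and 1 antagonist, among the 24421 gene symbols of a bulk RNA-seq count table. The genes were Il1r1, Il1r2, Il1rl1, Il1rl2, Il18r1, Il18rap, Il1rap, Il33, Il18 and Il1rn, and they were chosen by name. The choice was made knowing that Il18r1 and its chromosome 1 neighbour Il1rl2 were higher in DPPIV+ than in DPPIV- fibro-adipogenic progenitors (FAPs), the Sca1+ mesenchymal cells of the muscle interstitium. The levels of the 10 genes in these cells are therefore given as a description. Where the text counts how many of them the fit across all genes called between the cell types, this counts as no test of them. All 10 symbols were in the table, 8 of them reached the level required for the fit across genes, and Il1rl1 and Il18rap did not.

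Each of 2 wild-type mice gave 1 library of DPPIV- FAPs and 1 library of DPPIV+ FAPs, so the 4 libraries form 2 pairs from the same animals. All 4 libraries came from animals that had received a CSF1R inhibitor for 3 weeks, which depletes macrophages, and then a regular diet for 3 days. No library of untreated muscle was used here, and the labels gave no age. The cells were sorted by flow cytometry as live (PI-), CD31- CD45- Sca1+ and either DPPIV- or DPPIV+ cells, where DPPIV is the cell surface peptidase encoded by Dpp4. The source label names the tibialis anterior, while the protocol describes the muscle of both hindlimbs.

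The libraries held between 18240110 and 20879405 reads on genes, and 3 reads corresponded to 0.143 to 0.166 CPM (read counts scaled to the size of the library). Pdgfra, the receptor that marks FAPs, was at 1654 and 1473 CPM in the DPPIV- libraries and at 1238 and 1157 CPM in the DPPIV+ libraries. Ly6a, which encodes Sca1, was at 997 and 960 CPM and at 1468 and 1453 CPM. Dpp4, by which the cells were sorted, had 1879 reads in DPPIV- FAPs against 13106 in DPPIV+ FAPs of mouse 1, and 776 against 10476 in mouse 2. Of the 11588 genes kept, 33.0% were called between the cell types by edgeR's quasi-likelihood test (adjusted p under 0.05), 15.9% higher and 17.2% lower in DPPIV+ FAPs. Of 6 FAP marker genes it called 1 higher (Ly6a) and 4 lower (Pdgfra, Dcn, Col1a1 and Lum), and Col3a1 was not past the threshold. A difference in a sorted population can stem from fewer cells of a type or from less RNA per cell, and these cannot be told apart here.

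IL-1 family cytokines act on neighbouring cells through receptors that pair a ligand-binding chain with an accessory chain. The assembled receptor recruits MyD88 and IRAK kinases through its intracellular TIR domain and activates NF-kB. IL-1 alpha and IL-1 beta bind IL1R1, which pairs with the accessory chain encoded by Il1rap, and the same accessory chain serves the IL-33 receptor ST2 (Il1rl1) and the IL-36 receptor (Il1rl2). IL-18 uses its own pair, encoded by Il18r1 and Il18rap. The family holds its own brakes, among them the decoy receptor IL1R2, which binds IL-1 without signalling, and the antagonist encoded by Il1rn. In muscle, IL-33 from FAPs is known as a signal for ST2+ regulatory T cells after injury.

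The IL-18 receptor chain Il18r1 showed the widest separation of the 10 genes. It had 2 reads in the DPPIV- library of mouse 1 and 147 in its DPPIV+ library, and 2 and 128 reads in the libraries of mouse 2. Its level was 0.0954 and 0.102 CPM in the DPPIV- libraries, below the limit of 3 reads, and 8.15 and 7.01 CPM in the DPPIV+ libraries, so the cell types did not overlap. The ratio was 85.4 in mouse 1, with a 95% interval of 23.2 to 712, and 68.7 in mouse 2, with an interval of 18.6 to 573. These intervals are exact ones for 2 counts and cover counting error only. The fitted log2 fold change was 6.18 (SE 0.41), at rank 2 of the genes kept, and it depends on the prior count because of the few DPPIV- reads. SE values here and below come from the edgeR fit, which takes a gene's spread from its abundance trend. They do not measure the spread between the 2 mice. Il18r1 passed the filter on low values only through its DPPIV+ libraries.

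Il18rap encodes the accessory chain without which IL-18 binding does not signal. Its reads numbered 2 in each library of mouse 1, and 3 (DPPIV-) and 1 (DPPIV+) in mouse 2, at or under the limit of 3 reads throughout, and no fold is given. The chain that binds IL-18 was thus detected well above the limit in DPPIV+ FAPs, while its partner was not detectable above it in either cell type at this depth.

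Il18, the cytokine of this receptor, is made as an inactive precursor that caspase-1 cuts. It was at 5.96 and 4.85 CPM in the DPPIV- libraries and at 32.1 and 29.3 CPM in the DPPIV+ libraries. Both DPPIV+ libraries lay above both DPPIV- libraries, with means of 5.40 ± 0.788 and 30.7 ± 1.98 CPM (SD, n = 2 each). The mean was 5.69-fold higher in DPPIV+ FAPs, and the log2 ratio was 2.43 in mouse 1 and 2.60 in mouse 2. Il18bp, which encodes the soluble protein that neutralises IL-18, was at 5.72 and 4.23 CPM in DPPIV- FAPs and 6.26 and 7.01 CPM in DPPIV+ FAPs, and it did not pass the threshold (edgeR, adjusted p = 0.0944).

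**Figure D1:**
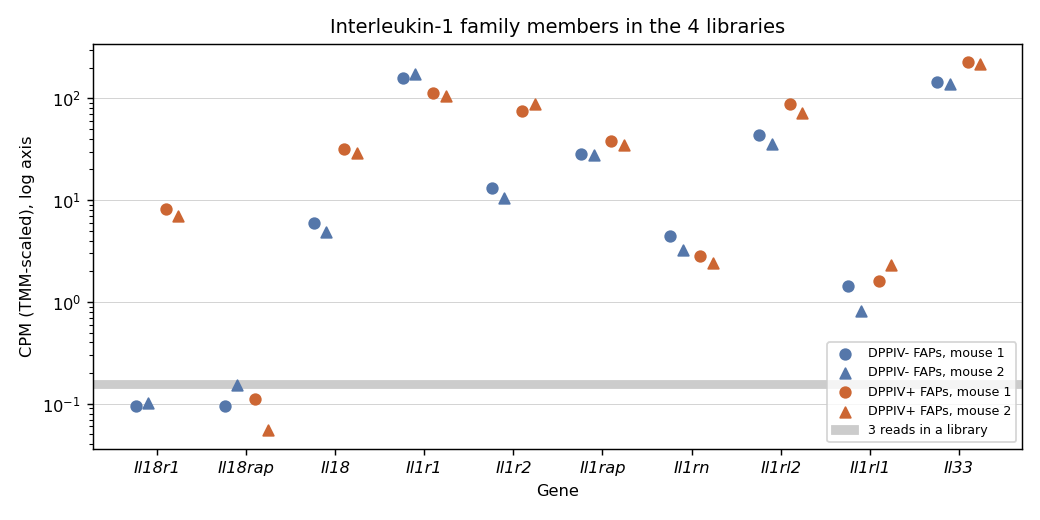
Level of each of the 10 genes in each of the 4 libraries, in CPM on TMM-scaled library sizes (log axis), with circles for mouse 1, triangles for mouse 2, blue for DPPIV- FAPs and orange for DPPIV+ FAPs. The grey band marks 3 reads in a library, and Il18r1 crosses it between the cell types while Il18rap stays at or under it.

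The sequences next to the start sites of the IL-18 genes are shown because Il18r1 and Il18rap lie side by side on chromosome 1 but had 147 and 128 reads against 2 and 1 reads in DPPIV+ FAPs. They were taken from RefSeq on GRCm38.p6, on the + strand, and hold the bases before the annotated start, without bases that GENCODE annotates as exon. Capitals mark matches of the motifs described further on. For Il18r1 (chr1:40465416-40465551) the stretch is the whole interval of 136 bases between the end of Il1rl1 and its own start. For Il18rap (chr1:40515112-40515361) and Il18 (chr9:50554450-50554699) it is the 250 bases before the RefSeq start. That of Il18 lies before the start of its GENCODE gene at chr9:50554827, so the stretch does not adjoin the latter.
Il18r1: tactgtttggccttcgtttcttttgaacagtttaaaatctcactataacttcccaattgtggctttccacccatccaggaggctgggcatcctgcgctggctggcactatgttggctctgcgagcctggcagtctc
Il18rap: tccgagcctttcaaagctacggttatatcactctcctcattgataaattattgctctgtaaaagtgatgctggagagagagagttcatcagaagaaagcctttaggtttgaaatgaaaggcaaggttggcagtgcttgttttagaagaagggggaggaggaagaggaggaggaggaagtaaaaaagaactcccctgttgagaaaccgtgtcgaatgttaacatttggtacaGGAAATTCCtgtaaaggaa
Il18: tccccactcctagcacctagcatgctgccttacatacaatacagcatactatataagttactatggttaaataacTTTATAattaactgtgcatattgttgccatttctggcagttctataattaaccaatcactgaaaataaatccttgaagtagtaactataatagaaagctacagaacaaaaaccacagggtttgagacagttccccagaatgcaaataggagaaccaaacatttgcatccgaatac

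The receptor and the decoy of IL-1 differed in opposite directions. Il1r1, the signalling receptor, was at 159 and 173 CPM in the DPPIV- libraries and at 114 and 105 CPM in the DPPIV+ libraries. Every DPPIV+ library was lower, and the DPPIV+ mean was 0.659 times the DPPIV- mean (166 ± 10.1 and 110 ± 5.82 CPM, SD, n = 2 each). Il1r2, the decoy, was at 13.2 and 10.6 CPM in the DPPIV- libraries and at 75.6 and 87.2 CPM in the DPPIV+ libraries. Its DPPIV+ libraries were both higher, with means of 11.9 ± 1.84 and 81.4 ± 8.18 CPM and a 6.83-fold difference. The log2 ratios were -0.48 and -0.72 for Il1r1 and 2.52 and 3.04 for Il1r2 in mouse 1 and mouse 2.

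Levels of different genes can be set side by side only per length, here as CPM per kilobase of the union of a gene's exons. On this scale Il1r2 was at 0.277 and 0.204 times the level of Il1r1 in the DPPIV- libraries and at 2.22 and 2.76 times that level in the DPPIV+ libraries. On this scale the decoy was thus below the signalling receptor in both DPPIV- libraries and above it in both DPPIV+ libraries. In CPM, Il1r2 was below Il1r1 in all 4 libraries. The order in DPPIV+ FAPs therefore rests on the annotated exon lengths, 6363 bases for Il1r1 and 1908 for Il1r2. The mean level of Il1r1 was 26.1 ± 1.59 CPM per kilobase in DPPIV- and 17.2 ± 0.915 in DPPIV+ FAPs, and that of Il1r2 was 6.24 ± 0.963 and 42.7 ± 4.28 (SD, n = 2 each). Gene counts do not separate the membrane-bound from the soluble forms that Il1r2, Il1rap and Il1rl1 can make.

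Il1rap, the shared accessory chain, differed by less. It was at 28.4 and 28.0 CPM in the DPPIV- libraries and at 38.0 and 34.5 CPM in the DPPIV+ libraries, which did not overlap. The DPPIV+ mean was 1.29-fold higher, with log2 ratios of 0.42 and 0.30. Il1rap shares 552 exon bases with the antisense gene Gm20319, which had 0 to 1 reads. Il1rn, whose product blocks IL1R1, was at 4.48 and 3.21 CPM in the DPPIV- libraries and at 2.83 and 2.41 CPM in the DPPIV+ libraries. These ranges did not overlap either, but with 44 to 94 reads the fitted log2 fold change was -0.55 with an SE of 0.25.

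Il1rl2, the receptor chain for the IL-36 cytokines of epithelia, was at 43.6 and 35.3 CPM in the DPPIV- libraries and at 87.1 and 72.3 CPM in the DPPIV+ libraries. All DPPIV+ values were above all DPPIV- values, and the means were 39.4 ± 5.89 and 79.7 ± 10.5 CPM (SD, n = 2 each). The log2 ratio was 1.00 in mouse 1 and 1.04 in mouse 2, so the 2.02-fold difference was nearly the same in both animals although the levels of mouse 2 were lower in both cell types. The ligands of this receptor were nearly without reads, with 0 reads of Il1f6 and Il1f8 and 0 to 3 reads of Il1f9 per library. Its antagonist Il1f5 had 0 reads.

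Il33 encodes an alarmin, a nuclear cytokine released when cells are damaged. It had the highest level of the 10 genes per length in both cell types, while in CPM Il1r1 was above it in both DPPIV- libraries. It was at 144 and 138 CPM in the DPPIV- libraries and at 225 and 215 CPM in the DPPIV+ libraries, again without overlap. The DPPIV+ mean was 1.56-fold higher, and the log2 ratios of 0.65 and 0.64 were the closest of the 8 genes kept. Per length, Il33 exceeded Il18 by 8.61 and 10.2 times in the DPPIV- libraries and by 2.51 and 2.62 times in the DPPIV+ libraries.

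Il1rl1, which encodes the IL-33 receptor ST2, had 30 DPPIV- against 29 DPPIV+ reads in mouse 1, and 16 against 42 in mouse 2. Only 1 library, the DPPIV+ library of mouse 2, reached 2 CPM. In CPM both DPPIV+ libraries (1.61 and 2.30) were above both DPPIV- libraries (1.43 and 0.816), but the log2 ratio was 0.17 in mouse 1 and 1.49 in mouse 2. A fit without the filter gave 0.80 (SE 0.38), so its size rested on mouse 2.

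**Figure D2:**
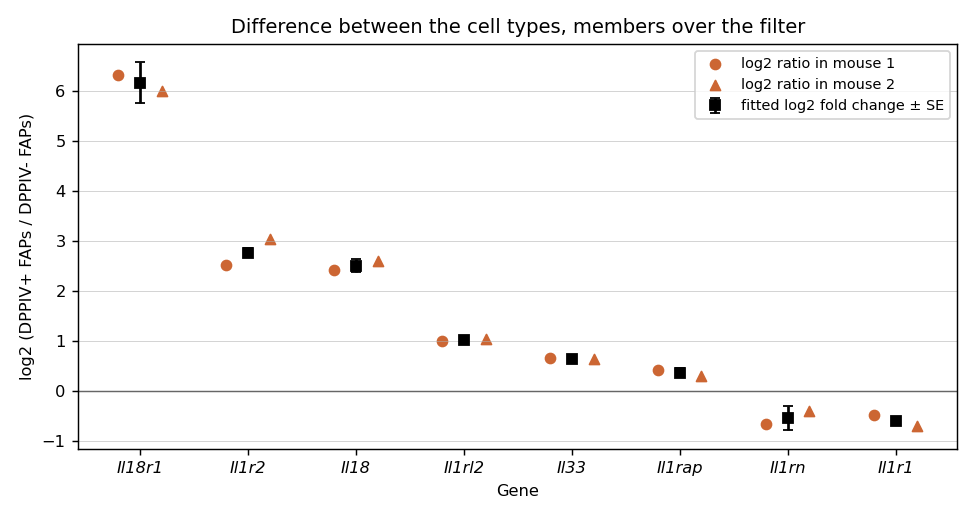
Log2 ratio of DPPIV+ to DPPIV- FAPs in mouse 1 (circles) and mouse 2 (triangles) for the 8 genes kept, with the fitted log2 fold change and its SE (squares and bars), ordered by that value. The first 6 genes lie above 0 in both mice and Il1rn and Il1r1 lie below 0 in both. The SE comes from the edgeR fit and does not measure the spread between the 2 mice.

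Of the 8 genes kept, 6 were past the threshold and higher in DPPIV+ FAPs (Il18r1, Il1r2, Il18, Il1rl2, Il33 and Il1rap), where 15.9% of the genes kept were. Only Il1r1 was past it and lower, where 17.2% were, and Il1rn was not past it. In CPM the cell types did not overlap for any of the 8 genes, 6 higher and 2 lower, while 56.3% of the genes kept did not overlap, 27.8% higher and 28.6% lower. Since the genes were chosen with this comparison known, nothing is read from these counts. Il1rap was not past the threshold with DESeq2's Wald test or when any 1 library was left out in a fit without the mouse as a block, and Il18r1 fell under the filter when either DPPIV+ library was left out.

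Per length, the order in DPPIV- FAPs ran from Il33 (48.8 ± 1.35 CPM per kilobase) and Il1r1 (26.1 ± 1.59) to a trio whose libraries overlapped, Il1r2 (6.24 ± 0.963), Il1rl2 (5.79 ± 0.865) and Il18 (5.24 ± 0.764). Il1rap (2.48 ± 0.0228), Il1rn (0.695 ± 0.162) and Il1rl1 (0.163 ± 0.0630) followed, and the IL-18 receptor chains Il18r1 and Il18rap overlapped at the bottom. In DPPIV+ FAPs the order was Il33 (76.4 ± 2.44), Il1r2 (42.7 ± 4.28), Il18 (29.8 ± 1.92), Il1r1 (17.2 ± 0.915), Il1rl2 (11.7 ± 1.54), Il1rap (3.19 ± 0.216) and Il18r1 (1.57 ± 0.167). Il1rn (0.473 ± 0.0534), Il1rl1 (0.283 ± 0.0710) and Il18rap closed it, and no neighbours in this order overlapped. Il1r1 stood next below Il33 in DPPIV- FAPs and below both Il1r2 and Il18 in DPPIV+ FAPs. In CPM, Il1r1 was above Il33 in both DPPIV- libraries and above Il1r2 and Il18 in both DPPIV+ libraries. These orders therefore rest on the annotated exon lengths. The length is that of all annotated exons together, so a gene that is expressed as a short isoform is understated.

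**Figure D3:**
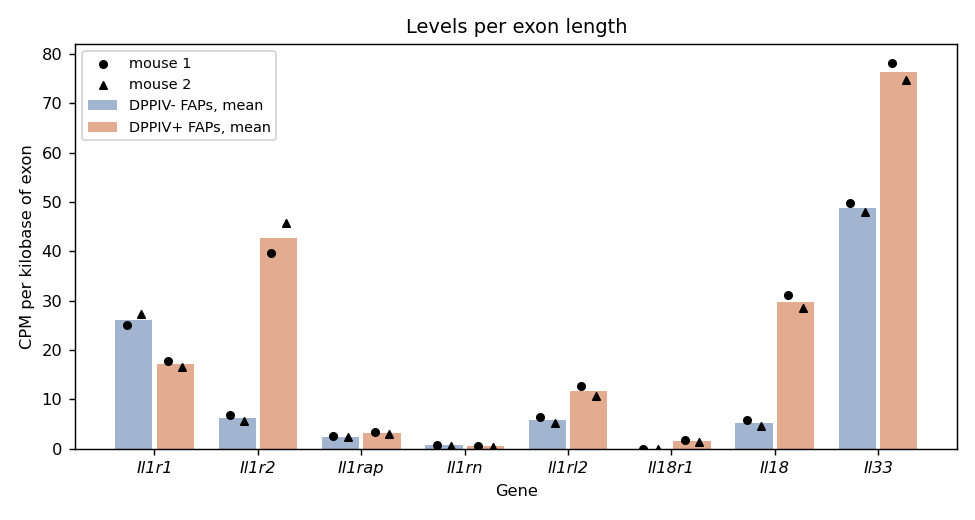
Level per exon length (CPM per kilobase of exon, linear axis from 0) of the 8 genes kept, with bars for the mean of DPPIV- (blue) and DPPIV+ FAPs (orange) and points for mouse 1 and mouse 2. Il1r1 stands above Il1r2 in DPPIV- FAPs and below it in DPPIV+ FAPs, where the order rests on the annotated exon lengths.

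The 6 receptor genes form a cluster on chromosome 1, in the order Il1r2, Il1r1, Il1rl2, Il1rl1, Il18r1 and Il18rap, all on the + strand (GRCm38, GENCODE M21). The cluster runs from Il1r2 at chr1:40074079-40125231 to Il18rap at chr1:40515362-40551705 and covers 478 kb. Between them lie Il1r1 at chr1:40225080-40317257, Il1rl2 at chr1:40324610-40367562, Il1rl1 at chr1:40429570-40465415 and Il18r1 at chr1:40465552-40500854. The fitted log2 fold changes along it were 2.77 (SE 0.09) for Il1r2, -0.60 (SE 0.07) for Il1r1, 1.02 (SE 0.07) for Il1rl2 and 6.18 (SE 0.41) for Il18r1, and Il1rl1 and Il18rap were under the filter. Il1r1 was the only kept gene of the cluster below 0, and it and Il1rl2, 7352 bases apart, differed in opposite directions. Il1rl1 and Il18r1, only 136 bases apart, had 16 to 42 reads and 2 to 147 reads per library.

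Of the 6 nearest protein coding genes outside the cluster, only Map4k4 and Mfsd9 were kept. Map4k4, a kinase gene before Il1r2, was lower in DPPIV+ FAPs by edgeR (log2 fold change -0.24, SE 0.07, adjusted p = 0.00124) but not by DESeq2 (adjusted p = 0.069). Before it, Gm3646 had 0 reads and Rfx8 had 6 reads in each DPPIV- library and 0 in each DPPIV+ library. After Il18rap, the sodium-proton exchanger genes Slc9a4 and Slc9a2 had at most 18 reads. Mfsd9, the next gene, was higher by edgeR (log2 fold change 0.79, SE 0.21, adjusted p = 0.00105) but not by DESeq2 (adjusted p = 0.154). The other 4 genes lie elsewhere, Il1rap at chr16:26581704-26730117, Il33 at chr19:29925114-29960718, Il18 at chr9:50554827-50581840 and Il1rn at chr2:24336853-24351494.

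**Figure D4:**
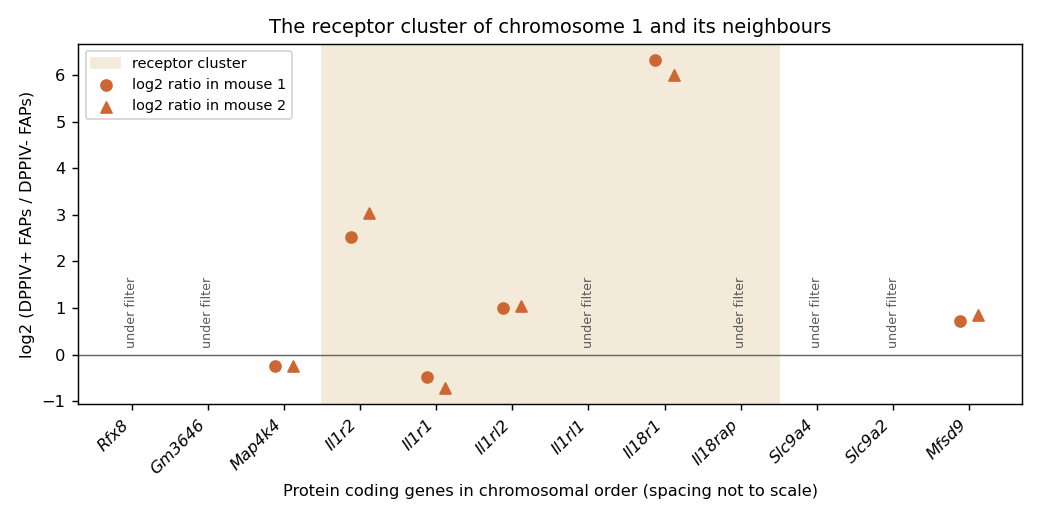
Log2 ratio of DPPIV+ to DPPIV- FAPs in mouse 1 (circles) and mouse 2 (triangles) for the receptor cluster of chromosome 1 (shaded) and the 3 protein coding genes on each side, in chromosomal order without scale. Within the shading Il1r2, Il1rl2 and Il18r1 lie above 0 and Il1r1 below it, and genes under the filter carry no point.

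The start sites of the 10 genes were searched for 4 motifs in 17 RefSeq windows, which hold 250 bases before and 50 after a start, on both strands. All 4 were chosen after the windows had been read, so no enrichment is read from setting their matches beside the genome shares below. Over 32851 windows of the genome, the letters of the core promoter box TATAAA occurred in 13.6% and those of the AP-1 site TGANTCA in 7.81%. The E-box letters CACGTG occurred in 7.15%. A form of the kappaB site, GGAANTTCC, occurred in 0.928%. Matches of GGAANTTCC were found in windows of 4 genes, all in the chromosome 1 cluster, beginning 106 bases before the start of Il1r2, 116 before that of Il1rl2, 19 before that of Il18rap and 7 after a start of Il1rl1. The RefSeq start of Il1r2 lies inside its GENCODE gene. None of the 3 windows of Il18r1 held a match of any of the motifs, TATAAA was found in windows of Il1rl2, Il33, Il18 and Il1rn, TGANTCA in Il1rn and CACGTG in that of Il1r2. No matches of different motifs overlapped. The RefSeq start of Il1rl2 lies before the start of its GENCODE gene. The 250 bases before this RefSeq start (chr1:40324339-40324588) show the GGAANTTCC match in capitals, after an earlier TATAAA match on the other strand.
Il1rl2: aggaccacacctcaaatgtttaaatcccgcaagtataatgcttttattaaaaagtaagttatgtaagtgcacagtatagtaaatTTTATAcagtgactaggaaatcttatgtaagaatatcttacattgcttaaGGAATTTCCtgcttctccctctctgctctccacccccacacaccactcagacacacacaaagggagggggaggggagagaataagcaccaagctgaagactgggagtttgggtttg

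A match says only that these letters are there. Of the genes with GGAANTTCC in a window, Il1r2 and Il1rl2 were at higher levels in DPPIV+ FAPs, and Il1rl1 and Il18rap were under the filter. Il18r1, Il18, Il33 and Il1rap were also at higher levels there and had no such match. Il1r1 and Il1rn, at lower levels there, had none either.

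The difference between the mice was not used to choose the genes and was tested in the same fit. Of the 8 genes kept, 0 were higher and 1 was lower in mouse 2 by edgeR's quasi-likelihood test, where 8.98% of the genes kept were called. The gene was Il1rl2, lower in mouse 2 in both cell types (log2 difference -0.29, SE 0.07, edgeR adjusted p = 0.00122), and DESeq2 did not call it (adjusted p = 0.669) or any other of the 8, where it called 1.01% of the genes it tested. The differences of the 8 genes ranged from -0.37 for Il1rn to 0.05 for Il1r2, and none was higher at an unadjusted p under 0.05 by edgeR or DESeq2. Dpp4 also was lower in mouse 2 (log2 difference -0.71, SE 0.07, edgeR adjusted p = 2.63e-20), and its part in the Il1rl2 result was not tested. This compares 2 animals and no condition.

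The genes nearest to 3 of the family members over the 4 libraries were taken by Euclidean distance of centred log2 CPM (prior count of 2). Nearest to Il18r1 were Bmp3 (distance 0.877), which encodes a bone morphogenetic protein, Mal2 (0.930) and Krtdap (1.16). Nearest to Il1rl2 were Usp18 (0.0595), an interferon-induced protease gene, Acss1 (0.0605) and B3galnt1 (0.0636). Nearest to Il33 were Atrnl1 (0.0247), Nov (0.0376), a matricellular gene of the CCN family, and Stxbp5 (0.0393). With 4 libraries in 2 pairs many genes share such a pattern, and the distances are a description.

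The rest of the pathway was read from 8 lists of 108 genes, of which 72 were kept. In them 20 genes were higher and 11 lower in DPPIV+ FAPs by edgeR's quasi-likelihood test (adjusted p under 0.05), or 43.1% of those kept, where 33.0% of all genes kept were called. Their median log2 fold change was 0.10, beside -0.002 over all genes kept. DESeq2 called 12 higher and 4 lower, where it called 16.6% of all genes kept. Without the mouse as a block there were 11 and 4 calls. Of the genes named below, Ikbkg, Mmp3, Cxcl1 and Il6 are left aside here. Those of the others not past the threshold without the block were Ikbkb, Bcl3, Tnfaip3, Zc3h12a, Saa3, Casp4, Tlr2, Tlr3, Tlr13, Tslp, Crlf2, Il4ra and Ccl11. In that model there were 14 and 5 without the DPPIV- library of mouse 1, 6 and 4 without the DPPIV+ library of mouse 1, 11 and 6 without the DPPIV- library of mouse 2, and 12 and 3 without the DPPIV+ library of mouse 2.

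The cytokines that IL1R1 binds were scarce in both cell types. Il1b, the form that inflammasomes release, had 93 DPPIV- against 50 DPPIV+ reads in mouse 1 and 41 against 35 in mouse 2, and it was not past the threshold (log2 fold change -0.45, SE 0.26, edgeR adjusted p = 0.189). For Il1a these were 8 against 4 reads and 1 against 0. Of the other receptors, Sigirr, an inhibitory member, had 2 to 18 reads per library, and Il1rapl1 and Il1rapl2, known from neurons, had 0. In these 2 lists, 2 of 11 genes were kept and edgeR called 0, with 1 higher (Il18bp) at an unadjusted p under 0.05, and DESeq2 called 0.

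Among 19 adaptors and kinases, all kept, 5 rose and 0 fell in DPPIV+ FAPs, with 6 and 1 at an unadjusted p under 0.05 and 3 and 0 by DESeq2. The 5 are 26.3% of the list, below the 33.0% of all genes kept that were called, and DESeq2 did not call Ikbkb and Ikbkg. The 5 were Irak3, which encodes the inhibitory kinase IRAK-M (log2 fold change 0.75, SE 0.07), Map3k8, a kinase of the ERK branch (0.47, SE 0.08), the adaptor gene Tollip (0.32, SE 0.07), and the IKK subunit genes Ikbkb (0.26, SE 0.07) and Ikbkg (0.22, SE 0.09). Among 12 NF-kB subunits and inhibitors, 4 rose and 1 fell by edgeR (41.7%, beside 33.0% of all genes kept). DESeq2 called 3 and 0, and it did not call Nfkbiz and Tnfaip3. The 4 were Nfkbia (0.62, SE 0.07), Nfkbiz (0.60, SE 0.07), Bcl3 (0.52, SE 0.09) and Rela (0.35, SE 0.07), and the gene that fell was Tnfaip3 (-0.28, SE 0.07), whose value was -0.03 without the DPPIV+ library of mouse 2 and with no block. Of these, Nfkbia, Nfkbiz and Bcl3 encode IkB proteins, Rela a subunit of NF-kB and Tnfaip3 the inhibitor A20. The log2 ratios of Nfkbiz were 0.90 in mouse 1 and 0.30 in mouse 2, and those of Bcl3 were 0.82 and 0.19, so the size differed between the animals.

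Genes that fibroblasts are known to induce under IL-1 split in both directions, with 6 higher and 5 lower of 17 kept by edgeR and 3 and 3 by DESeq2. The edgeR calls were 64.7% of those kept, where 33.0% of all genes kept were called. Ptgs2, which encodes the prostaglandin enzyme COX-2, rose from 258 to 681 CPM in mouse 1 and from 205 to 385 CPM in mouse 2 (log2 fold change 1.16, SE 0.07, edgeR adjusted p = 3.8e-60). Its DPPIV+ libraries were both higher. Lcn2, an iron-binding acute phase gene, rose by 1.27 (SE 0.16) and the chemokine gene Ccl7 by 0.54 (SE 0.07). The RNase gene Zc3h12a (0.25, SE 0.09) was called by edgeR but not by DESeq2, with upper-quartile scaling or with any 1 library left out. The adhesion molecule genes fell, Vcam1 from 87.2 and 89.1 CPM to 23.4 and 28.6 CPM (log2 fold change -1.77, SE 0.07, edgeR adjusted p = 3.37e-121) and Icam1 from 133 and 128 CPM to 53.5 and 51.2 CPM (-1.32, SE 0.07). The matrix protease gene Mmp3 was lower by both tools (-0.76, SE 0.07, DESeq2 adjusted p = 1.76e-08). Its log2 ratios were -0.77 in mouse 1 and -0.75 in mouse 2. The matrix protease gene Mmp13 (-2.18, SE 0.24) and the serum amyloid gene Saa3 (-0.82, SE 0.19) were lower by edgeR but not by DESeq2. The log2 ratio of Saa3 was -0.43 in mouse 1 and -0.99 in mouse 2. Its value turned positive (0.75) without the DPPIV- library of mouse 2 and with no block. That fit keeps DPPIV- FAPs of mouse 1 alone, where Saa3 was at 3.15 CPM, against 16.4 CPM in mouse 2. The log2 ratio of Mmp13 was -3.14 in mouse 1 and -1.08 in mouse 2, whose DPPIV- libraries held 257 and 84 reads. Mmp3, Cxcl1 and Il6 were chosen for mention after their values were seen. The calls of Cxcl1 and Il6 rested on mouse 1. The log2 ratio of Il6 was 0.66 in mouse 1 and -0.16 in mouse 2, and that of Cxcl1 0.55 and -0.09.

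Of the inflammasome genes and the proteases that cut IL-1 family precursors, 7 of 16 were kept, and edgeR called Casp4 alone, lower in DPPIV+ FAPs (-0.39, SE 0.14), with 0 calls by DESeq2. The list of Toll-like receptor genes also holds genes of their adaptors and co-receptors, such as Ticam1 and Cd14. Of it, 3 rose among 9 kept, Tlr4 (0.55, SE 0.07), Tlr2 (0.51, SE 0.09) and Tlr3 (0.22, SE 0.09). Tlr13 fell (-0.76, SE 0.30), while DESeq2 called Tlr4 and Tlr2. Of the alarmin and type 2 response genes, 6 of 12 were kept. Il13ra1, a receptor chain for IL-13, rose by 0.72 (SE 0.07) and the alarmin Tslp by 0.54 (SE 0.17). Crlf2, the receptor chain for TSLP (-0.47, SE 0.15), Il4ra (-0.29, SE 0.07) and the eotaxin gene Ccl11 (-0.25, SE 0.07) fell. DESeq2 called Il13ra1 and Ccl11. In the order of these lists, edgeR called 14.3%, 44.4% and 83.3% of the genes kept, where it called 33.0% of all genes kept.

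**Figure D5:**
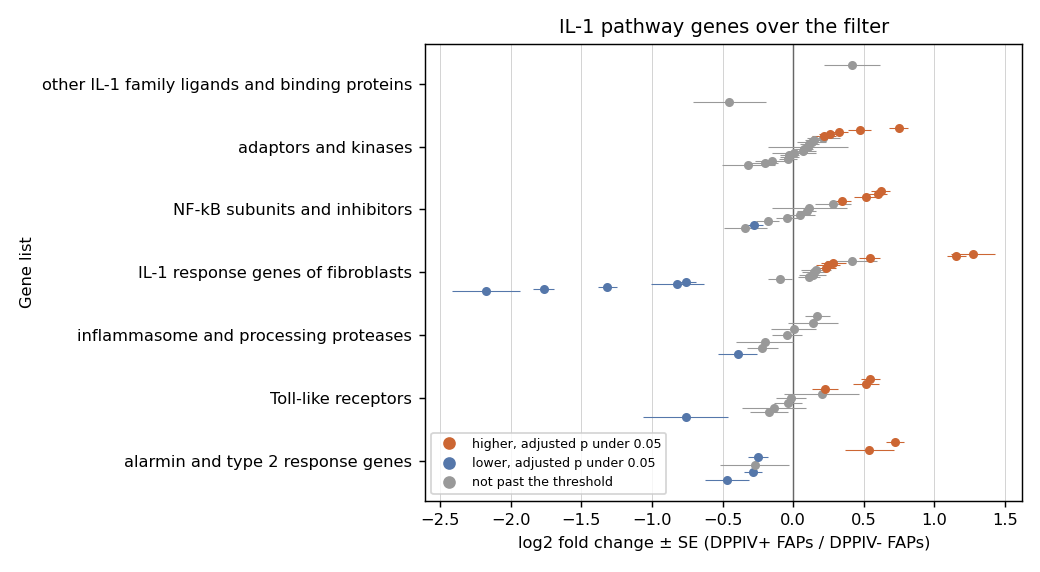
Fitted log2 fold change (DPPIV+ over DPPIV- FAPs) with its SE for the 72 pathway genes kept, by list, in orange where edgeR called the gene higher, blue where lower and grey where it was not past the threshold. The fibroblast response genes reach furthest to both sides, from Mmp13 at -2.18 to Lcn2 at 1.27. The value of Mmp13 differed between the mice. The SE comes from the edgeR fit and does not measure the spread between the 2 mice.

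Several of these genes are also used by leukocytes, so markers of other cells were read in the same libraries. The summed level of 9 T, NK and innate lymphoid cell genes was 0.918 to 2.05 CPM, with 0 of 9 kept, 0 reads of Cd3g and 0 to 1 of Cd3e. That of 7 mast cell genes was 0.816 to 4.21 CPM, with 0 kept and 0 reads of Ms4a2. Neutrophil genes summed to 1.20 to 4.20 CPM, with 0 of 4 kept. Mesothelial genes summed to 0.477 and 0.255 CPM in DPPIV- FAPs and to 1.83 and 1.42 CPM in DPPIV+ FAPs, with 0 of 5 kept. Krt19 was the largest part of these sums, with 7 and 3 reads in the DPPIV- and 30 and 20 in the DPPIV+ libraries.

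Macrophage genes summed to 358 and 214 CPM in DPPIV- FAPs and to 228 and 199 CPM in DPPIV+ FAPs. Lyz2 was the largest part of these sums, at 219 and 125 CPM and at 130 and 121 CPM. Of the 7 kept genes, 6 were lower by edgeR, and 0 by DESeq2 or by edgeR without the mouse as a block. In mouse 2 the log2 ratios of Csf1r, Lyz2 and C1qa were -0.001, -0.04 and -0.05. Those of Adgre1, C1qb and Mrc1, the other genes called, were -0.37, -0.31 and -0.59. Il1b and Il1rn were also at lower values in DPPIV+ FAPs, neither past the threshold, and Il18 and Il1r2 at higher ones. Ptprc, the leukocyte gene CD45 that the sort excluded, had 117 to 204 reads per library. Tendon cell genes summed to 196 and 294 CPM in DPPIV- FAPs and to 747 and 1546 CPM in DPPIV+ FAPs, 4 of 4 higher by both tools. Fmod alone was at 167 and 259 CPM and at 687 and 1442 CPM, while Scx and Mkx reached at most 7.83 and 7.66 CPM. Mural cell genes summed to 121 and 123 CPM in DPPIV- FAPs and to 51.0 and 63.4 CPM in DPPIV+ FAPs, with 5 of 6 lower by edgeR and 3 by DESeq2. Of 5 blood endothelial genes, Tek was higher (1.42, SE 0.07) and 3 were lower by edgeR, among them Pecam1, of which DESeq2 called 0. Over all genes kept, edgeR called 15.9% higher and 17.2% lower, and DESeq2 called 16.6% in either direction. The part of these other cell types in the levels of the IL-1 family genes was not tested.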

How the data were processed

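Sorted DPPIV- and DPPIV+ FAPs of 2 mice were sequenced as bulk RNA. The authors mapped read pairs with STAR (mm10), tallied them by annotated gene with RnaReadCounter, and deposited these raw counts for 24421 symbols. The strand setting of the counting was not given in the sources used here.

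A gene was kept if 2 or more libraries reached 2 CPM (11588 genes). Counts were normalized by TMM and fitted with edgeR 4.0.16 in R 4.3.3 (quasi-likelihood, mouse and cell type as terms, two-sided, Benjamini-Hochberg over the genes kept, threshold 0.05). This fit has 1 residual degree of freedom, and its prior degrees of freedom were infinite. The spread used for a gene is thus the one of its abundance trend, and abundant genes get very small p-values. A printed SE is the absolute log2 fold change divided by the square root of the test's F statistic. DESeq2 1.42.0 was an alternative. The other alternatives were a fit with no replicate block, upper-quartile and RLE scaling, a stricter filter or none, robust moderation and libraries or mice left out. The pairing comes from the animal numbers in the labels, and the differences between the mice in both cell types correlated at 0.434 over 11588 genes. CPM values use library sizes scaled by TMM, a prior count of 0.125 entered the log2 ratio of each mouse, and the script was tested on simulated data.

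Exon lengths and positions are from GENCODE M21 (GRCm38), which is mm10, and windows at start sites from RefSeq (GRCm38.p6), in which all 10 genes were found. Transcripts of the 10 genes had no other gene at 97% identity over 50 bases (BLAST 2.17.0). All 10 genes are named. Of each pathway list up to 4 called genes in each direction with the same sign in both mice are named, 3 neighbours on each side of the chromosome 1 cluster, and the 3 nearest patterns of Il18r1, Il1rl2 and Il33. Ikbkg, Mmp3, Cxcl1 and Il6 were added after their values were seen. The genes, the lists and the markers were chosen with earlier results of these data known.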

Additional observations from a re-analysis of the deposited data

How the results depend on the processing

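The directions of the fitted differences of the 8 genes kept between DPPIV+ and DPPIV- FAPs were the same in each setting in which they could be computed. The count of 6 higher genes was 5 with DESeq2, 5 with 2 CPM required in at least 3 libraries, where Il18r1 fell under the filter, and 4 to 5 with 1 library left out, while Il1r1 was lower in each. The same fit without the replicate block called 7 of these genes, and since they were chosen with this comparison known, nothing is read from that. The calls over all genes were 1837 higher and 1989 lower, 1001 and 1119 without the replicate block, and 923 and 995 with DESeq2. The pathway lists had 20 higher and 11 lower genes, 12 and 4 with DESeq2, 11 and 4 without the replicate block, and 6 to 14 and 3 to 6 with 1 library left out and no block. The 1 gene lower in mouse 2 (Il1rl2) became 0 with DESeq2 and 0 with the animal as the only term. Saa3 turned from a log2 fold change of -0.82 to 0.75 without the DPPIV- library of mouse 2 and with no block. That fit keeps DPPIV- FAPs of mouse 1 alone. Within each mouse the log2 ratio of Saa3 was negative (-0.43 and -0.99), and Saa3 was higher in mouse 2 (log2 difference 2.15). The part of this difference between the mice in the turn was not tested. The edgeR p-values rest on the abundance trend of the spread in these 4 libraries of 2 animals. They do not measure a gene's own spread between the animals. At 2 reads per DPPIV- library, the depth limits the size of the Il18r1 ratio, and for Il18rap no difference was detectable.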
